A study of Mus musculus with 12 samples.

Results

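The levels of 9 enzymes of itaconate, arginine and histamine metabolism were followed in myeloid cells of the inflamed mouse paw. The 9 genes, Acod1, Hdc, Nos2, Gch1, Ass1, Arg1, Arg2, Odc1 and Sat1, were chosen by name from 55401 gene IDs, with values of these libraries already known. They were selected on the difference between carrageenan and saline, because Acod1 and Hdc stood far higher after carrageenan, so that contrast is given for them as a description without a test. All 9 were found in both treatments, and 7 of them had at least 1 read in each of the 12 libraries.

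The cells were CD45+/CD11b+/Ly6G- cells sorted from the hind paw of adult mice 4 h after an injection there. The 4 groups were FABP5Flox/LysM-Cre mice (labelled LysMCre-cKO) given 1% carrageenan, FABP5Flox mice (labelled Flox) given 1% carrageenan, LysMCre-cKO mice given saline and Flox mice given saline. Both genotypes carry the floxed Fabp5 alleles. The Cre is driven from the myeloid lysozyme locus Lyz2, and because neither group carries Cre alone, the Cre, the altered Lyz2 locus and the loss of Fabp5 cannot be told apart. Each group has 3 libraries, and each library is a pool of 3 or 4 mice, named here by the mouse numbers in its label (10 mice per Flox group, 12 per LysMCre-cKO group).

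Itaconate is made from cis-aconitate of the citric acid cycle by aconitate decarboxylase, the product of Acod1, which inflammatory stimuli switch on in macrophages; itaconate slows succinate dehydrogenase. Arginine is shared by nitric oxide synthase, which needs the cofactor tetrahydrobiopterin, and by the arginases, whose product ornithine feeds the polyamines. Histamine comes from histidine by a single decarboxylase, Hdc, best known from mast cells and basophils and also inducible in macrophages.

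Levels are normalized counts, that is, reads of a gene divided by a size factor of its library, with all 12 libraries brought to 1 scale. They are compared within a gene only, because 3' tag reads were counted and the levels are not per length. Totals ran from 508407 to 2627107 reads in LysMCre-cKO carrageenan libraries, 220463 to 994161 in Flox carrageenan libraries, 1145606 to 2987015 in LysMCre-cKO saline libraries and 111925 to 637238 in Flox saline libraries. The LysMCre-cKO libraries together held 4.52 times the reads of the Flox libraries, and 1 read was worth between 0.253 and 5.51 normalized counts on the scale of all 12 libraries. In bulk samples, fewer cells of a type and less RNA per cell cannot be told apart. Reads of Ptprc (CD45) and Itgam (CD11b), the markers sorted for, numbered 8558 and 6232 over the 12 libraries. Csf1r, which was not sorted on, had 23272 reads, and Ly6g, the marker sorted against, had 4. Fabp5 averaged 13.5 ± 8.63 normalized counts in LysMCre-cKO and 58.7 ± 34.4 in Flox after carrageenan, and 7.10 ± 3.67 in LysMCre-cKO and 21.0 ± 14.8 in Flox after saline (SD, n = 3 each). The log2 difference of Fabp5 was -2.06 after carrageenan (95% interval -3.24 to -0.87) and -1.20 after saline (-3.01 to 0.62). The authors' deposited log2 fold changes were -1.52 (SE 0.41) after carrageenan and -1.10 (SE 0.45) after saline. Neither difference passed the test after adjustment over all genes (limma, adjusted p = 0.497 after carrageenan and 0.683 after saline). Fabp5 reads were present in every LysMCre-cKO library, and whether the 3' tags lie in the deleted part is not given. Lyz2, the Cre locus, averaged 2524 ± 850 in LysMCre-cKO and 5443 ± 743 in Flox after carrageenan, and 2789 ± 145 in LysMCre-cKO and 4347 ± 1228 in Flox after saline, and did not pass either (limma, adjusted p = 0.497 after carrageenan and 0.683 after saline). Its log2 difference was -1.14 after carrageenan (95% interval -1.77 to -0.51) and -0.57 after saline (-1.42 to 0.29). 2 libraries stood apart from their groups, Flox saline pool 1-3 with the fewest reads and LysMCre-cKO carrageenan pool 9-12 with the fewest reads of its genotype, and calls that change without them are given both ways.

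Promoter sequences are shown for Acod1 and Hdc, the 2 genes that led the choice, and for Sat1, whose level varied least between groups. Each is the stretch of 250 bases before the RefSeq start on GRCm38.p6, read 5′ to 3′ on the strand of the gene, with matches to the motifs below in capitals. The Acod1 stretch lies at chr14:103046762-103047011 on the plus strand, the Hdc stretch at chr2:126618679-126618928 on the minus strand, and the Sat1 stretch at chrX:155216450-155216699 on the minus strand.
Acod1: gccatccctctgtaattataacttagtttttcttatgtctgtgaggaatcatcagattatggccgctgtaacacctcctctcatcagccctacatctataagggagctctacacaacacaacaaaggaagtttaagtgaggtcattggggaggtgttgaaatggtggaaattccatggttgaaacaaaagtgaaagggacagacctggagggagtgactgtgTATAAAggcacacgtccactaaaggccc
Hdc: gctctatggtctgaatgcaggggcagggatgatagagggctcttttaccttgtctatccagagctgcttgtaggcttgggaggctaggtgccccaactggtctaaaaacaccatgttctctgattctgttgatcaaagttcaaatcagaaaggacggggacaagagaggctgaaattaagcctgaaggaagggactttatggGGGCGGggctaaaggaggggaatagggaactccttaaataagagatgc
Sat1: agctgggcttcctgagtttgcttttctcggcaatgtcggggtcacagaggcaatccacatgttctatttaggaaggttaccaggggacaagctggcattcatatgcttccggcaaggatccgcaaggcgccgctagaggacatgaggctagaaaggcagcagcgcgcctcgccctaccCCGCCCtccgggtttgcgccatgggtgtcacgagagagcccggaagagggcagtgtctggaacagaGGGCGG
Acod1 holds a TATA box (TATAAA) at -28 to -23, counted from the start with -1 as the last base before it. Hdc holds a GC box (GGGCGG) at -48 to -43, and Sat1 holds GC boxes at -72 to -67 (on the other strand) and at -6 to -1. Promoters of 6 of the 9 genes were found in RefSeq, those of Nos2, Arg1 and Arg2 were not, and 5 motifs were searched on both strands over 300 bases (250 before and 50 after the start). The GC box was in 5 of the 6 (Ass1, Gch1, Hdc, Odc1 and Sat1) and in 35.9% of all 27025 promoters, and the TATA box was in 2 of the 6 (Acod1 and Gch1) and in 14.2% of all. The NF-kB consensus was in 1 of the 6 (Gch1) and in 5.55% of all. The AP-1 motif TGANTCA (7.93% of all) and the interferon-stimulated response element GAAANNGAAA (3.49% of all) were in none of the 6 windows. A match describes the letters of a window and no more.

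Carrageenan and saline were set side by side in each genotype first. All 9 genes had higher mean levels after carrageenan than after saline in both genotypes, from 0.43 log2 units for Sat1 in Flox to 4.61 for Nos2 in Flox. That Nos2 value rests on 1 saline read and depends on the pseudocount. Carrageenan and saline libraries did not overlap for 7 of the 9 genes in LysMCre-cKO (12.6% of 10240 genes tested were higher in this way) and for 7 of the 9 in Flox (13% of 10240 genes). The median log2 difference of the 9 was 2.16 in LysMCre-cKO and 2.98 in Flox, beside medians over all genes tested of -0.07 in LysMCre-cKO and 0.10 in Flox. Because this contrast chose the genes, nothing is read from these counts.

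**Figure D1:**
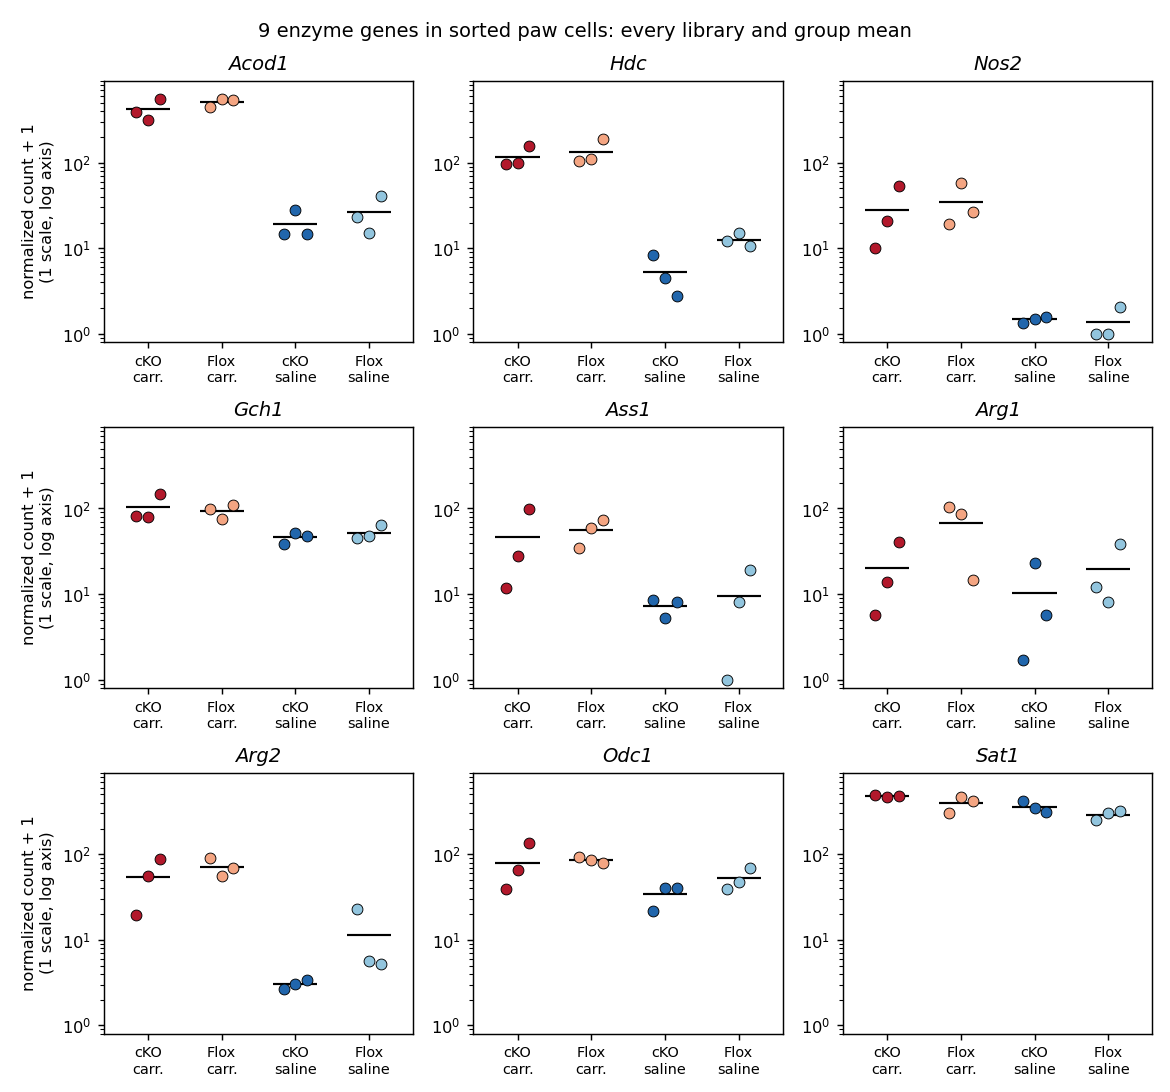
Normalized count plus 1 (log axis) of each of the 9 genes in every library, by group; points are libraries in the order of their pool numbers and bars are means of 3. Acod1, Hdc, Nos2, Gch1, Ass1 and Arg2 did not overlap between carrageenan and saline in either genotype, whereas Arg1 overlapped in both.

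Acod1 (chr14:103046977-103056573, plus strand, GRCm38), the itaconate-forming enzyme, measured 393, 318 and 555 normalized counts in LysMCre-cKO carrageenan pools 1-4, 5-8 and 9-12, against 13.9, 27.1 and 13.5 in the saline pools of the same numbers. In Flox it measured 448, 561 and 532 after carrageenan in pools 1-3, 4-7 and 8-10, against 22.1, 14.0 and 39.7 after saline. Every carrageenan library stood above every saline library, and the carrageenan libraries of the genotypes overlapped. The log2 difference was 4.50 ± 0.37 in LysMCre-cKO and 4.41 ± 0.37 in Flox (limma estimate ± SE, 3 libraries a group). The highest carrageenan library was 1.75 times the lowest in LysMCre-cKO and 1.25 times in Flox, and the highest saline library was 2.004 times the lowest in LysMCre-cKO and 2.84 times in Flox.

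Hdc (chr2:126593667-126619299, minus strand), histidine decarboxylase, measured 96.5, 98.4 and 156 normalized counts in LysMCre-cKO carrageenan pools 1-4, 5-8 and 9-12, against 7.44, 3.54 and 1.76 after saline. The Flox carrageenan pools 1-3, 4-7 and 8-10 measured 104, 108 and 186, against 11.0, 14.0 and 9.65 after saline. Carrageenan libraries were again all above saline libraries, while the saline libraries of LysMCre-cKO all lay below those of Flox. Hdc was higher after carrageenan by 4.60 ± 0.45 log2 units in LysMCre-cKO (3.73 with a pseudocount of 5 in place of 1) and by 3.38 ± 0.45 in Flox. The saline levels rest on 39 reads in LysMCre-cKO and 17 in Flox. Markers of the best known histamine-making cells were sparse: Cpa3, Tpsb2 and Mcpt4, of mast cells, had 112, 69 and 57 reads over the 12 libraries, Mrgprb2 had 0, and 8 of 9 mast cell markers had a read. Their summed level was 12.3 to 35.7 in LysMCre-cKO carrageenan, 0 to 12.1 in Flox carrageenan, 8.82 to 21.5 in LysMCre-cKO saline and 6.43 to 28.0 in Flox saline libraries. Of 6 basophil markers 5 had a read, with 8 reads of Mcpt8, 20 of Cd200r3 and 0 of Prss34, and the sum was 1.53 to 53.7 in LysMCre-cKO carrageenan, 19.6 to 57.4 in Flox carrageenan, 1.52 to 5.41 in LysMCre-cKO saline and 0 to 143 in Flox saline libraries. Most of that sum was Gata2, a transcription factor of mast cells and basophils, with 342 reads, which averaged 26.8 in LysMCre-cKO and 32.2 in Flox after carrageenan, and 1.86 in LysMCre-cKO and 45.9 in Flox after saline. The Flox saline mean of Gata2 rests on 25 reads and on pool 1-3, the library with the fewest reads. The basophil sum was 143 in that pool, against 4.66 in Flox saline pool 4-7 and 0 in pool 8-10. The part of either cell type in the Hdc level was not tested.

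Nos2 (chr11:78920787-78960254, plus strand), the inducible nitric oxide synthase, was near the limit of detection after saline. It measured 9.17, 19.7 and 52.2 normalized counts in LysMCre-cKO carrageenan pools 1-4, 5-8 and 9-12, against 0.34, 0.51 and 0.59 after saline, where the 3 libraries together held 4 reads. In Flox it measured 18.2, 57.4 and 25.7 after carrageenan in pools 1-3, 4-7 and 8-10, against 0, 0 and 1.07 after saline. The carrageenan libraries all stood above the saline libraries, and a count of 0 in Flox saline pools 1-3 and 4-7 allows up to 16.5 and 6.99 normalized counts (3 reads, counting error only). Per read of depth the Flox ratio was 44.7, with an exact 95% counting interval of 7.71 to 1794, from 58 reads after carrageenan and 1 after saline. The fitted log2 difference in LysMCre-cKO was 3.92 ± 0.74, which depends on the pseudocount of 1 (2.31 with a pseudocount of 5 and 5.47 with edgeR). In Flox it was 4.61 ± 0.74, which depends on it as well (2.73 with a pseudocount of 5 and 5.47 with edgeR).

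Gch1 (chr14:47153895-47189413, minus strand), GTP cyclohydrolase, the first enzyme toward tetrahydrobiopterin, measured 79.8, 78.0 and 147 normalized counts in LysMCre-cKO carrageenan pools 1-4, 5-8 and 9-12, against 37.9, 50.9 and 46.4 after saline. In Flox pools 1-3, 4-7 and 8-10 it measured 96.3, 74.3 and 108 after carrageenan, against 44.1, 46.6 and 63.2 after saline. The treatments did not overlap in either genotype, with log2 differences of 1.10 ± 0.31 in LysMCre-cKO and 0.84 ± 0.31 in Flox. Ass1 (chr2:31470207-31520672, plus strand), argininosuccinate synthase, which returns citrulline toward arginine, measured 10.9, 26.5 and 98.2 in the LysMCre-cKO carrageenan pools, against 7.44, 4.30 and 7.05 after saline. Its Flox values were 33.8, 57.4 and 72.5 after carrageenan, against 0, 6.99 and 18.2 after saline. Treatments did not overlap for Ass1 either, but the carrageenan libraries of LysMCre-cKO spanned 9.03-fold and pool 9-12 was far above the other two. The log2 difference was 2.16 ± 0.94 in LysMCre-cKO (1.34 without carrageenan pool 9-12) and 3.31 ± 0.94 in Flox (2.10 without saline pool 1-3, which held no Ass1 read).

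The arginases differed from each other in how steady they were. Arg1 (chr10:24915221-24927484, minus strand), the cytosolic arginase, measured 4.76, 12.96 and 39.9 normalized counts in LysMCre-cKO carrageenan pools 1-4, 5-8 and 9-12, against 0.68, 22.3 and 4.70 after saline. In Flox pools 1-3, 4-7 and 8-10 it measured 104, 84.5 and 13.6 after carrageenan, against 11.0, 6.99 and 37.5 after saline. Carrageenan and saline overlapped in both genotypes, and libraries within a group differed by 5.37-fold to 33.0-fold. The lowest saline values rest on few reads, 2 in LysMCre-cKO pool 1-4 and 2 and 3 in Flox pools 1-3 and 4-7, so counting error widens these spans. The log2 differences, 1.29 ± 1.03 in LysMCre-cKO and 1.72 ± 1.03 in Flox, were close to the size of their errors.

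Arg2 (chr12:79130777-79156301, plus strand), the mitochondrial arginase, measured 18.7, 54.8 and 87.4 normalized counts in LysMCre-cKO carrageenan pools 1-4, 5-8 and 9-12, against 1.69, 2.03 and 2.35 after saline. The Flox pools 1-3, 4-7 and 8-10 measured 88.5, 54.1 and 68.0 after carrageenan, against 22.1, 4.66 and 4.29 after saline. The treatments did not overlap, with log2 differences of 3.93 ± 0.66 in LysMCre-cKO (2.85 with a pseudocount of 5 and 4.62 with edgeR) and 2.98 ± 0.66 in Flox. Vti1b overlaps Arg2 on the other strand and had reads of its own, and the strand used in counting is not stated, so Arg2 reads may be shared.

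As a share of all arginase reads in a library, Arg2 made up 79.7%, 80.9% and 68.7% in LysMCre-cKO carrageenan pools 1-4, 5-8 and 9-12, and 45.9%, 39.0% and 83.3% in Flox carrageenan pools 1-3, 4-7 and 8-10. After saline it was 71.4%, 8.33% and 33.3% in LysMCre-cKO, and 66.7%, 40% and 10.3% in Flox. Only 5 to 96 arginase reads stood behind a saline share, and the shares of the groups overlapped. The share did not differ detectably between genotypes, with means of 76.4% ± 6.73 in LysMCre-cKO and 56.1% ± 23.8 in Flox after carrageenan (SD, n = 3, two-sided exact permutation p = 0.4) and 37.7% ± 31.8 in LysMCre-cKO and 39.0% ± 28.2 in Flox after saline (exact permutation p = 0.9). The smallest p that 3 against 3 libraries allows is 0.1.

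**Figure D2:**
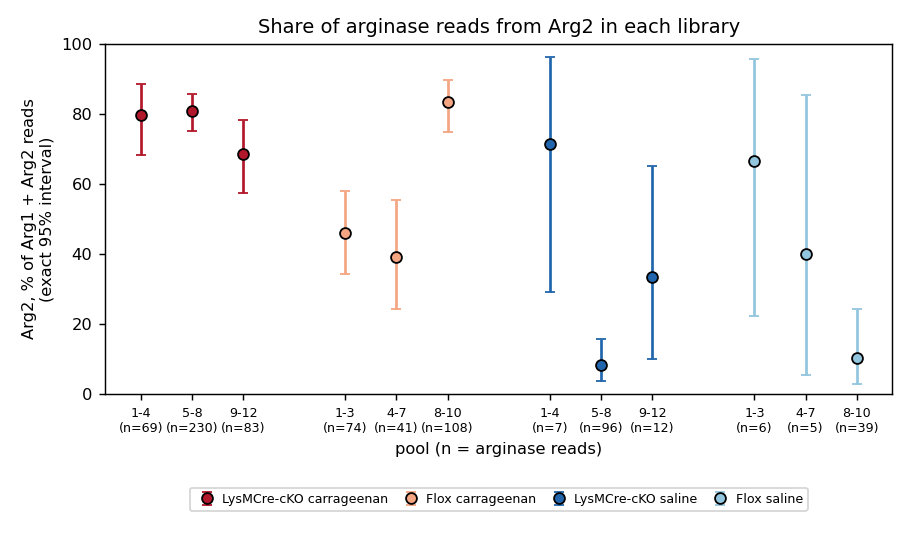
Reads of Arg2 as a percentage of Arg1 plus Arg2 reads in each library, with exact (Clopper-Pearson) 95% intervals that cover counting error only. The 3 LysMCre-cKO carrageenan libraries lie between 68.7% and 80.9%, and the saline libraries of both genotypes are widely spread.

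Of the polyamine enzymes, Odc1 (chr12:17544794-17551505, plus strand), ornithine decarboxylase, which forms putrescine, measured 38.7, 64.5 and 133 normalized counts in LysMCre-cKO carrageenan pools 1-4, 5-8 and 9-12, against 21.0, 39.7 and 39.4 after saline. In Flox pools 1-3, 4-7 and 8-10 it measured 91.1, 84.5 and 78.5 after carrageenan, against 38.6, 46.6 and 68.6 after saline. The treatments overlapped in LysMCre-cKO, where the log2 difference of 1.09 ± 0.42 was 0.63 without carrageenan pool 9-12, and did not overlap in Flox, where it was 0.75 ± 0.42. Sat1 (chrX:155213132-155216449, minus strand), the acetyltransferase that marks spermidine and spermine for export or breakdown, measured 492, 472 and 476 in the LysMCre-cKO carrageenan pools, against 413, 345 and 309 after saline. Flox values of Sat1 were 302, 463 and 418 after carrageenan, against 248, 301 and 318 after saline. Sat1 was the steadiest of the 9, with log2 differences of 0.44 ± 0.23 in LysMCre-cKO, where the treatments did not overlap, and 0.43 ± 0.23 in Flox, where they did.

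**Figure D3:**
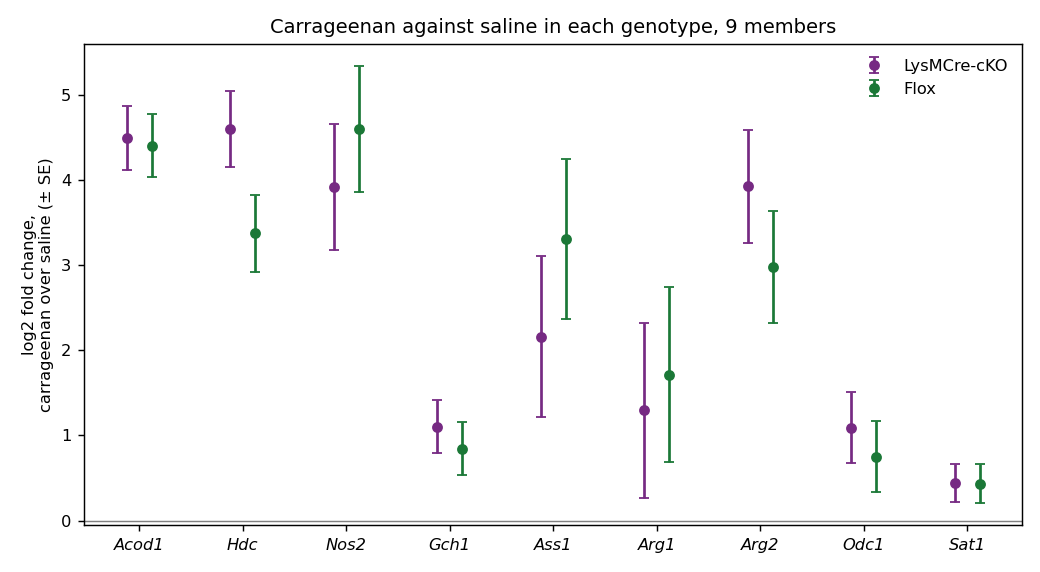
Log2 fold change of carrageenan over saline for the 9 genes in LysMCre-cKO (left point of each pair) and Flox (right point), limma estimates with bars of 1 SE from 12 libraries. The estimates run from 0.43 for Sat1 in Flox to 4.61 for Nos2 in Flox, and all are above 0. The Nos2 estimate in Flox rests on 1 saline read and was 2.73 with a pseudocount of 5.

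Marker levels of the cell types a sort of this kind can hold also differed between the treatments. The summed level of 9 inflammatory monocyte markers was 2933 to 8914 in LysMCre-cKO carrageenan, 6167 to 8089 in Flox carrageenan, 1916 to 2683 in LysMCre-cKO saline and 2189 to 3182 in Flox saline libraries. Thbs1 was the largest part of it after carrageenan, averaging 3392 in LysMCre-cKO and 3540 in Flox, against 389 and 400 after saline. F13a1 alone of the 9 markers was lower after carrageenan, at 542 in LysMCre-cKO and 614 in Flox, against 1232 and 1205 after saline. The summed level of 11 resident macrophage markers was 4520 to 10936 in LysMCre-cKO carrageenan, 3220 to 4528 in Flox carrageenan, 15677 to 22580 in LysMCre-cKO saline and 10443 to 15730 in Flox saline libraries. For 13 neutrophil markers, of which Camp and Ngp had no read, the sum was 142 to 700 in LysMCre-cKO carrageenan, 395 to 726 in Flox carrageenan, 20 to 37.0 in LysMCre-cKO saline and 35.0 to 76.1 in Flox saline libraries. Of cells outside the blood lineage, 6 fibroblast markers summed to 678 to 1017 in LysMCre-cKO carrageenan, 693 to 1200 in Flox carrageenan, 254 to 640 in LysMCre-cKO saline and 38.6 to 558 in Flox saline libraries. For 4 keratinocyte markers the sum was 532 to 949 in LysMCre-cKO carrageenan, 446 to 654 in Flox carrageenan, 686 to 1435 in LysMCre-cKO saline and 248 to 583 in Flox saline libraries. That of 5 endothelial markers was 34.3 to 62.9 in LysMCre-cKO carrageenan, 77.8 to 101 in Flox carrageenan, 21.8 to 40.2 in LysMCre-cKO saline and 0 to 21.4 in Flox saline libraries. Within the LysMCre-cKO carrageenan group, pool 9-12 had the highest monocyte sum (8914), the highest neutrophil sum (700) and the lowest resident macrophage sum (4520), and it also had the highest level of 8 of the 9 genes, all but Sat1. How many of all genes were highest in that pool was not counted, so this is not read as particular to the 9. The part of cell make-up in the levels of the 9 genes was not tested.

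The genes whose pattern over the 12 libraries was most like that of Acod1 were Il1rn, the interleukin-1 receptor antagonist, Ccl5, a chemokine, the interferon-inducible genes Ifi205 and Ifi209, and Ptgs2, the inducible cyclooxygenase. Likeness was the root mean square difference between log2(value + 1) centred on each gene's mean, over 5597 genes with a mean of at least 20, and it was 0.51 for Il1rn, 0.63 for Ccl5, 0.66 for Ifi205, 0.66 for Ifi209 and 0.67 for Ptgs2. The 9 genes themselves were left out of both rankings. Both treatments enter this measure, so genes with a carrageenan difference of like size rank near, and that difference chose Acod1 and Hdc. Nothing about shared regulation is read from the rankings. For Hdc the nearest of the other genes were Ifi209 (0.58), and then the interferon-stimulated genes Mx1 (0.79) and Isg15 (0.84) with Ms4a4c (0.84) and Ccl5 (0.84). Of the 9, Acod1 (0.73) and Arg2 (0.84) were nearest to Hdc, both nearer than Isg15. Il1rn averaged 2957 normalized counts in LysMCre-cKO and 3058 in Flox after carrageenan, and 180 in LysMCre-cKO and 150 in Flox after saline.

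Other genes of the same pathways were tested between carrageenan and saline, in 5 lists of 74 genes that leave out the 9, of which 54 passed the filter on low values. Rose and fell stand here for calls at an adjusted p under 0.05. In LysMCre-cKO 3 of the 54 rose (2.1% of all genes tested rose) and 1 fell (0.547% of all genes tested fell). A replicate block of the pool numbers was fitted to all 12 libraries, so the Flox pools were blocked as well. With it, Smox rose and Atp13a2 and Idh1 fell in LysMCre-cKO, so 1 rose and 2 fell there. In Flox 4 of the 54 rose (4.42% of all genes tested rose) and 4 fell (2.74% of all genes tested fell). The median log2 difference of the 54 was -0.14 in LysMCre-cKO and -0.14 in Flox. The lists were drawn up with results of these data known.

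Of 14 genes of arginine transport and the urea cycle that were tested, Slc7a2, an arginine transporter, rose in both genotypes. It averaged 40.7 ± 17.1 normalized counts after carrageenan and 5.18 ± 3.30 after saline in LysMCre-cKO, and 71.6 ± 24.4 after carrageenan and 2.21 ± 2.15 after saline in Flox (SD, n = 3 each). The log2 fold change was 2.83 ± 0.70 in LysMCre-cKO (limma, adjusted p = 0.045) and 4.75 ± 0.70 in Flox (limma, adjusted p = 0.0016). In LysMCre-cKO the call was lost with a replicate block of the pool numbers (limma, adjusted p = 0.10), on the deposited scale and in 9 of 12 fits that each left out 1 library, and it held in those 3 that left out a Flox saline library. Slc7a6, an exchanger of cationic and neutral amino acids, rose in Flox by 2.93 ± 0.83 (limma, adjusted p = 0.047), to 42.0 ± 21.0 after carrageenan against 7.04 ± 6.22 after saline. In LysMCre-cKO Slc7a6 averaged 17.9 ± 7.15 after carrageenan and 12.1 ± 2.31 after saline and did not pass. Its Flox call was lost on the deposited scale and held in 3 of 12 fits that each left out 1 library, those without Flox saline pool 4-7 or 8-10 or Flox carrageenan pool 8-10. Gatm, which takes arginine toward creatine, fell in Flox to 30.5 ± 3.74 after carrageenan, against 77.7 ± 18.2 after saline (log2 fold change -1.30 ± 0.32, limma, adjusted p = 0.023). The Gatm call was lost without Flox saline pool 4-7 or without any 1 of the 3 Flox carrageenan pools (adjusted p up to 0.068). The median of this list was -0.02 in LysMCre-cKO and 0.51 in Flox.

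Of 14 tested genes of polyamine metabolism, Smox, spermine oxidase, rose in both genotypes. Smox averaged 298 ± 151 normalized counts after carrageenan and 51.2 ± 7.83 after saline in LysMCre-cKO, and 363 ± 64.5 after carrageenan and 78.9 ± 47.1 after saline in Flox. The treatments did not overlap in either genotype, with log2 fold changes of 2.40 ± 0.44 in LysMCre-cKO (limma, adjusted p = 0.0090) and 2.37 ± 0.44 in Flox (limma, adjusted p = 0.0054). Leaving out LysMCre-cKO carrageenan pool 9-12 gave an adjusted p of 0.057 in LysMCre-cKO. Atp13a2, a lysosomal polyamine exporter, fell in LysMCre-cKO to 13.8 ± 0.83 after carrageenan, against 49.9 ± 11.9 after saline (log2 fold change -1.76 ± 0.34, limma, adjusted p = 0.014). In Flox it averaged 27.4 ± 3.80 after carrageenan and 54.1 ± 9.17 after saline and did not pass (limma, adjusted p = 0.11). The LysMCre-cKO call for Atp13a2 was lost without saline pool 1-4, without saline pool 9-12 and without carrageenan pool 5-8 of that genotype (adjusted p up to 0.11). The median of the polyamine list was 0.15 in LysMCre-cKO and 0.33 in Flox.

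Of 18 tested genes around itaconate and the citric acid cycle, none was called higher. By limma, 3 were called lower in Flox and none was called lower in LysMCre-cKO. Idh2, the mitochondrial isocitrate dehydrogenase that makes NADPH, averaged 43.5 ± 2.09 normalized counts after carrageenan and 106 ± 6.07 after saline in LysMCre-cKO, where it did not pass (limma, adjusted p = 0.13), and fell in Flox to 15.7 ± 10.5 after carrageenan, against 90.9 ± 18.4 after saline. The log2 fold change was -1.27 ± 0.40 in LysMCre-cKO and -2.64 ± 0.40 in Flox (limma, adjusted p = 0.0016 in Flox). Idh1, its cytosolic counterpart, averaged 45.9 ± 10.6 after carrageenan and 114 ± 25.4 after saline in LysMCre-cKO, and 19.9 ± 8.29 after carrageenan and 78.4 ± 15.8 after saline in Flox. Its fold change was -1.30 ± 0.37 in LysMCre-cKO (limma, adjusted p = 0.089, and 0.047 with a replicate block) and -2.00 ± 0.37 in Flox (limma, adjusted p = 0.0054). In LysMCre-cKO the 95% interval was -2.09 to -0.51 for Idh1 and -2.11 to -0.42 for Idh2, and edgeR called both lower there. None of the 18 was called in the interaction with genotype. Clybl, which acts on citramalyl-CoA, a breakdown product of itaconate, fell in Flox by 3.03 on the log2 scale (SE 0.75, limma, adjusted p = 0.024), from 5 reads in its 3 carrageenan libraries and 17 in its saline libraries. That call was lost without Flox saline pool 4-7 or without Flox carrageenan pool 1-3 or 4-7 (adjusted p up to 0.084) and with edgeR. The median of this list was -0.27 in LysMCre-cKO and -0.73 in Flox, and neither the succinate dehydrogenase subunits nor the aconitases were called.

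Among histamine genes only 4 of 10 could be tested, and Slc18a2, the vesicular monoamine transporter that loads histamine into granules, rose in both genotypes from very few reads. It had 59 reads after carrageenan and 2 after saline in LysMCre-cKO, a depth-adjusted ratio of 36.3 (exact 95% counting interval 9.62 to 307), and 14 reads after carrageenan and 1 after saline in Flox, a ratio of 10.8 (1.64 to 456). The limma adjusted p was 0.035 in LysMCre-cKO and 0.031 in Flox, it was 0.053 with the replicate block in LysMCre-cKO, and edgeR did not call it in Flox. Slc18a2 reached the filter on low values through carrageenan libraries only. With no filter the call was lost in both genotypes (limma, adjusted p = 0.13 in LysMCre-cKO and 0.11 in Flox). Leaving out any 1 of the 6 LysMCre-cKO libraries ended the LysMCre-cKO call, and the Flox call held in 4 of 12 such fits, those without Flox saline pool 8-10, Flox carrageenan pool 4-7 or LysMCre-cKO carrageenan pool 1-4 or 9-12. The receptors Hrh3 and Hrh4 and the histamine-degrading Aoc1 were below the filter. None of 4 tetrahydrobiopterin genes passed in either genotype, with median log2 differences of -0.81 in LysMCre-cKO and -1.04 in Flox. The monocyte sum, largely through Thbs1, and the resident macrophage and neutrophil sums given above moved with the same treatment, and their part in these changes was not tested.

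**Figure D4:**
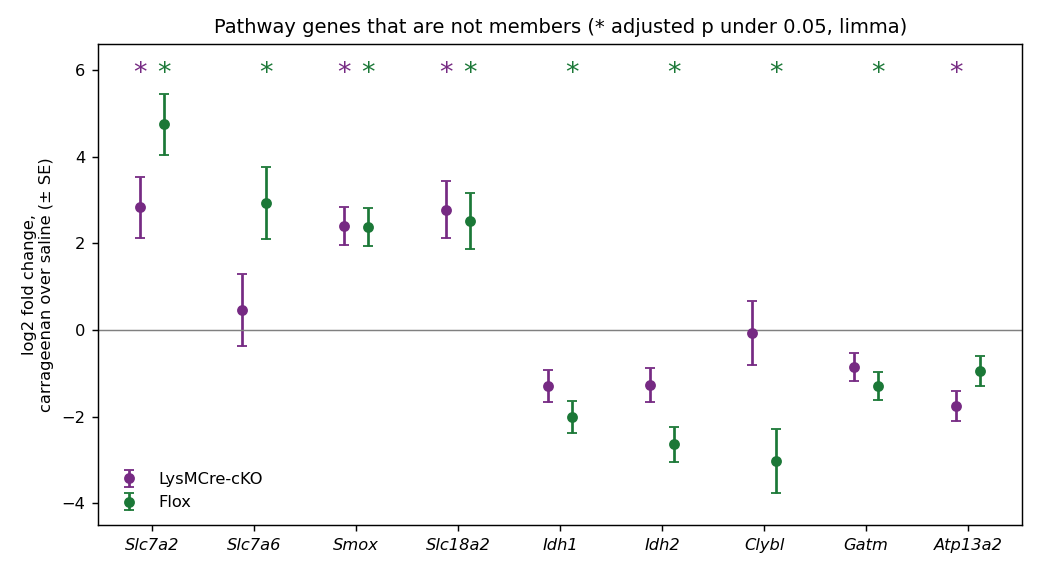
Log2 fold change of carrageenan over saline for the 9 pathway genes past the threshold in at least 1 genotype, in LysMCre-cKO (left point of each pair) and Flox (right point), with bars of 1 SE and a star over each adjusted p under 0.05. Slc7a2, Smox and Slc18a2 were called higher in both genotypes, and no gene was called lower in both. The Slc18a2 calls were lost in both genotypes with no filter on low values.

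The genotype comparison was not used to choose the genes and was tested, on the scale the authors deposited within each treatment. None of the 9 differed between LysMCre-cKO and Flox in any comparison at an adjusted p under 0.05. After carrageenan all 9 were tested and none was called (0% of 9151 genes were called by limma, 897 genes had an unadjusted p under 0.05, and edgeR called 0). The log2 difference ran from -1.76 for Arg1 to 0.31 for Sat1, with 7 of 9 below 0 and a median of -0.31, beside 0.09 over all genes. Acod1 averaged 422 ± 121 normalized counts in LysMCre-cKO and 514 ± 58.8 in Flox after carrageenan (SD, n = 3 each), a difference of -0.31 ± 0.25 with a 95% interval of -0.87 to 0.25 (limma, adjusted p = 0.643). Hdc averaged 117 ± 34.1 in LysMCre-cKO and 133 ± 46.5 in Flox, a difference of -0.16 ± 0.31 with an interval of -0.85 to 0.53 (limma, adjusted p = 0.853). For both genes the interval lies within 1 log2 unit of no difference. Arg1 averaged 19.2 ± 18.4 in LysMCre-cKO and 67.4 ± 47.6 in Flox after carrageenan, a difference of -1.76 ± 0.83 with an interval of -3.61 to 0.08 (limma, adjusted p = 0.505). The Arg1 libraries overlapped, since Flox pool 8-10, at 13.6, lay between LysMCre-cKO pools 5-8 and 9-12. Sat1 was higher in all 3 LysMCre-cKO carrageenan libraries than in any Flox one (8.87% of genes tested were higher in this way), by 0.31 ± 0.23 (limma, adjusted p = 0.605). The other differences were -0.73 ± 0.65 for Ass1, -0.60 ± 0.49 for Arg2, -0.47 ± 0.62 for Nos2, -0.27 ± 0.40 for Odc1 and 0.09 ± 0.31 for Gch1.

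LysMCre-cKO carrageenan pool 9-12 weighed on this comparison. Without it 420 of 8908 genes were called and none of the 9 was among them, while the differences grew to -2.49 for Arg1, -1.54 for Ass1, -1.06 for Arg2, -1.09 for Nos2, -0.74 for Odc1 and -0.52 for Acod1 (limma, adjusted p between 0.11 and 0.31 for these 6), and Gch1 changed sign to -0.21. Sat1 stayed at 0.32 and Hdc was -0.38.

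After saline 7 of the 9 were tested, because Nos2 and Arg2 had too few reads, and none was called (0% of 9371 genes were called by limma, 508 had an unadjusted p under 0.05, and edgeR called 0). Hdc measured 7.44, 3.54 and 1.76 normalized counts in LysMCre-cKO and 11.0, 14.0 and 9.65 in Flox. Of the 7 tested, its genotypes alone did not overlap after saline (5.23% of genes tested were lower in this way), with a difference of -1.38 ± 0.71 and an interval of -3.0 to 0.25 (limma, adjusted p = 0.683). Arg2, which was not tested, had the same order, with every LysMCre-cKO saline library below every Flox one, on 17 reads in LysMCre-cKO and 10 in Flox. The other differences were -1.34 ± 1.07 for Arg1 (-2.32 to -0.39 without 1 library), -0.59 ± 0.40 for Odc1 (-0.80 to -0.29), -0.38 ± 0.55 for Acod1, -0.15 ± 0.32 for Gch1, 0.33 ± 0.24 for Sat1 and 0.43 ± 1.12 for Ass1, and Ass1 turned to -0.91 with edgeR. The median of the 7 was -0.38, beside 0.25 over all genes.

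Averaged over both treatments, none of the 9 was called, and 1 gene of 10243 was (0.00976%, with 1531 at an unadjusted p under 0.05 and 65 called by edgeR, none of the 9 among these). That gene, Lyz1, the paralog beside the Cre locus gene Lyz2, is named after its value was seen because it was the only call. Lyz1 averaged 591 normalized counts in LysMCre-cKO and 230 in Flox after carrageenan, and 962 in LysMCre-cKO and 427 in Flox after saline (log2 fold change 1.28 ± 0.17, limma, adjusted p = 0.030), and its reads may be split with those of Lyz2. In 7 of 12 fits that each left out 1 library no gene was called. The averaged fit took all 12 libraries as independent, although LysMCre-cKO pools of the same number were taken to pair. Its errors and intervals may therefore be too small. Among the 9, the lowest adjusted p-values belonged to Hdc at -0.77 ± 0.32 (interval -1.45 to -0.09, limma, adjusted p = 0.293), Arg2 at -1.07 ± 0.46 (interval -2.06 to -0.07, limma, adjusted p = 0.305) and Arg1 at -1.55 ± 0.73 (interval -3.12 to 0.02, limma, adjusted p = 0.339). The Arg2 estimate takes in its saline difference, which had too few reads to be tested alone (17 in LysMCre-cKO and 10 in Flox). Without Flox saline pool 1-3 the Arg2 estimate was -0.73. Sat1 was the only one of the 9 above 0, at 0.32 ± 0.16 (limma, adjusted p = 0.365). Without LysMCre-cKO carrageenan pool 9-12, 230 genes were called, and without it and Flox saline pool 1-3 there were 769, none of the 9 among them in either case.

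**Figure D5:**
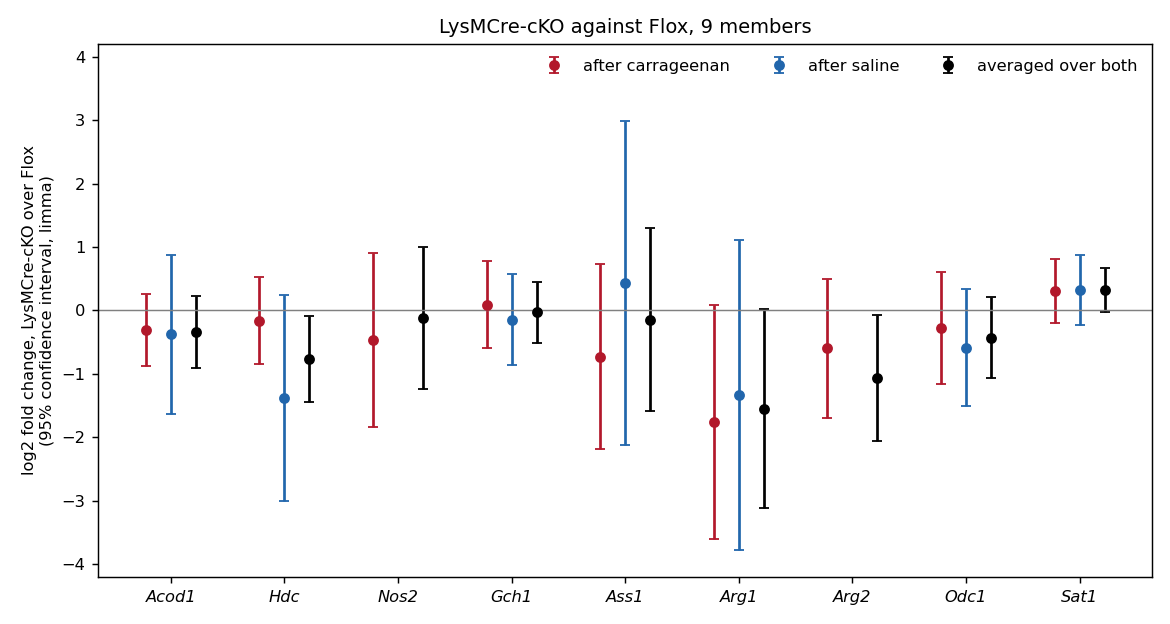
Log2 fold change of LysMCre-cKO over Flox for the 9 genes after carrageenan, after saline and averaged over both treatments, with 95% confidence intervals from limma. Most intervals include 0, and those of Hdc and Arg2 averaged over both treatments do not, although their adjusted p-values are 0.293 and 0.305. The averaged Arg2 estimate takes in a saline difference on 17 reads in LysMCre-cKO and 10 in Flox, too few to be tested alone. The averaged fit has no block for the pool numbers, so its intervals may be too narrow.

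Whether the size of the carrageenan difference depended on genotype was tested as an interaction. None of the 9 was called (0% of 10243 genes by limma, 244 with an unadjusted p under 0.05, and edgeR called 0). Hdc had a carrageenan difference larger by 1.22 ± 0.64 log2 units in LysMCre-cKO (interval -0.15 to 2.58, limma, adjusted p = 0.967), where its saline level was the lower one and its carrageenan levels overlapped those of Flox. Acod1 differed by 0.07 ± 0.53 (interval -1.07 to 1.21), and the widest interval of the 9 was that of Arg1, -3.56 to 2.71. Of the 74 pathway genes none was called between genotypes in any comparison, with 8 of 51 tested at an unadjusted p under 0.05 after carrageenan, 3 of 50 after saline, 9 of 54 averaged over both and 2 of 54 in the interaction.

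In the authors' deposited table for carrageenan, Arg1 had a log2 fold change of -1.06 (SE 0.45) in LysMCre-cKO over Flox, with an adjusted p of 0.381, and that was the lowest adjusted p of the 9. In the authors' deposited table for saline, Arg2 had -0.95 (SE 0.47) with an unadjusted p of 0.042 and no adjusted p, and the lowest adjusted p of the 9 was 0.808, for Odc1.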

How the data were processed

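Per the labels' protocols, RNA of sorted cells was made into LUTHOR libraries, which tag the 3' end and carry unique molecular identifiers, and sequenced paired-end on an Illumina NovaSeq. Cutadapt, STAR and GRCm38 are named per the submitters' processing notes, without versions, while for the read counter, annotation, strand setting and use of identifiers the sources used here give nothing. The authors deposited a signal in normalized counts (reads of a gene over the library's size factor) in 1 table per treatment, each normalized by itself. The authors' comparison tables hold, per the file headers, a log2 fold change with its standard error and a p-value and adjusted p-value per gene for LysMCre-cKO over Flox.

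Whole reads were recovered from the steps of the values: 100% of low values were whole within 0.001. Entries that name no gene (121, 0.170% to 2.23% of a library) were left out, 55141 of 55401 gene IDs got a symbol from GENCODE, and 0 columns were unmatched. For carrageenan over saline a common scale of all 12 libraries was set from 6501 genes, by medians of ratios. Genes with at least 5 in at least 3 libraries were tested with limma 3.58.1 in R 4.3.3 on log2(normalized count + 1), with a trend, 4 group means where all 12 libraries entered, Benjamini-Hochberg adjustment over all genes tested and a threshold of 0.05. edgeR 4.0.16 (quasi-likelihood) on the recovered reads was an alternative and called 733 genes for carrageenan over saline in LysMCre-cKO and 615 in Flox, beside 271 in LysMCre-cKO and 734 in Flox by limma. On simulated data, limma recovered 91% of changes of 3 log2 units and 5% of changes of 1 for LysMCre-cKO over Flox after carrageenan (8874 genes), and 76% and 3% after saline (8978 genes). Genes with a low mean were left unchanged there, and every gene had the same simulated dispersion. These rates therefore do not give the power for genes with few reads or a wide spread, such as Nos2, Arg2, Hdc after saline or Arg1.

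The 9 genes, the pathway lists and the marker lists were chosen with earlier results of these data known. Named were the 9 genes, the pathway genes past the threshold (at most 4 a list), Fabp5 and Lyz2, the 5 genes most like Acod1 and Hdc, and the marker lists. Pool numbers were checked as pairs by correlating deviations from group means: in LysMCre-cKO the same numbers correlated at 0.25, 0.52 and 0.61, so those numbers were taken to pair libraries, and in Flox at 0.03, -0.02 and 0.09, so those were not. Differing LysMCre-cKO numbers correlated at -0.54 to 0.34, and saline 5-8 with carrageenan 1-4 (0.34) exceeded the matching pair 1-4 (0.25). Pool 9-12, at 0.61, had the fewest reads of its group in both treatments. The pairing is thus uncertain, and the replicate block covered the pools of both genotypes. The labels do not say whether saline and carrageenan pools of 1 number share mice. Where nothing says that pools share no mice, p-values measure only the spread between these libraries. Tests between treatments use levels set across 2 tables normalized apart. Promoters and their starts are from RefSeq.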

Additional observations from a re-analysis of the deposited data

How the results depend on the processing

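The count of called members stayed at 0 under all 10 alternatives after carrageenan, all 10 after saline, all 17 averaged over both and all 18 in the interaction. Of the pathway genes, 4 were called in LysMCre-cKO and 8 in Flox. With no filter on low values 2 were called in LysMCre-cKO and 4 in Flox, and edgeR called 7 in LysMCre-cKO, with Paox, Idh1 and Idh2 added. Leaving out 1 library gave 1 to 6 in LysMCre-cKO and 5 to 9 in Flox. A replicate block gave 3 in LysMCre-cKO, 1 higher and 2 lower, and 7 in Flox, and since Flox numbers do not pair libraries, the Flox value is given as a count only. Over all genes, carrageenan over saline had 271 calls in LysMCre-cKO and 734 in Flox, with no filter 143 in LysMCre-cKO and 418 in Flox. In LysMCre-cKO limma had 215 higher and 56 lower calls, and edgeR 469 higher and 264 lower. Leaving out 1 library gave 84 (without LysMCre-cKO saline 1-4) to 521 (without Flox saline 1-3) calls in LysMCre-cKO and 350 (without Flox carrageenan 4-7) to 1080 (without Flox saline 8-10) in Flox. Without Flox carrageenan 8-10, Flox had 292 higher and 325 lower calls, against 453 higher and 281 lower with it. The deposited scale moved the median log2 difference of all genes from -0.07 to -0.18 in LysMCre-cKO and from 0.10 to 0.02 in Flox, and no member changed direction with it. Genotype estimates near 0 changed sign without 1 library. After carrageenan they ranged from -1.09 to 0.10 for Nos2, -1.06 to 0.0096 for Arg2, -0.38 to 0.11 for Hdc, -0.74 to 0.13 for Odc1 and -0.21 to 0.25 for Gch1. After saline they ranged from -0.71 to 0.022 for Acod1, -0.80 to 1.37 for Ass1 and -0.27 to 0.032 for Gch1, and edgeR gave -0.91 for Ass1. Averaged, they ranged from -0.43 to 0.16 for Nos2, -0.77 to 0.32 for Ass1 and -0.18 to 0.060 for Gch1. In the interaction they ranged from -0.33 to 0.40 for Acod1, -1.37 to 0.55 for Arg1, -0.15 to 0.72 for Odc1, -2.10 to 0.074 for Ass1, -0.19 to 0.12 for Sat1 and -0.060 to 0.39 for Gch1. There edgeR gave 0.0039 for Nos2 and 0.44 for Ass1, the scale over 12 libraries 0.0081 for Sat1, and leaving out both libraries that stand apart, an alternative chosen after seeing the data, -0.085 for Acod1, -0.19 for Arg2 and 0.13 for Sat1. The cause was not tested. Depth limits Nos2, Arg2, Hdc and Ass1 after saline, with 1 to 39 reads of each over 3 Flox or LysMCre-cKO libraries except 51 for Ass1 in LysMCre-cKO.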
